A study of Mus musculus with 9 samples.

Results

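Hbp1, Pias1, Stat3, Jun, Rbpj and Luc7l2 are nuclear regulators that the study listed among genes held to restrain muscle differentiation. Their values are given here on every array of a comparison of arrested, growing and differentiated muscle cells. The members were found by the gene symbol that the array files give for each spotted clone, with older names counted, and Rbpj stood in the files as Rbpsuh. They comprised 6 of the 7612 gene symbols on the array and 13 of its 15247 cDNA clones. Hbp1 had 3 clones, Pias1 and Stat3 had 2 each, Jun and Rbpj 1 each, and Luc7l2 had 4. The study chose these genes as higher in arrested myoblasts on the same arrays, so their direction in that comparison is not independent evidence.

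Myoblasts leave the cell cycle along separate routes. One leads to fusion and the contractile apparatus of the myotube, and the other to a reversible arrest, called G0, in which the muscle programme is held back while the cell can still return to division. Several classes of nuclear protein are known to act at this fork. Hbp1 is an HMG box repressor that binds the retinoblastoma family and blocks Wnt target genes, and Pias1 is a SUMO ligase that acts on transcription factors. Stat3 carries the signal of cytokine receptors that use gp130, Jun is a subunit of AP-1, and Rbpj is the DNA-binding partner of the Notch receptors. Luc7l2 differs from the others, being a splicing factor associated with the U1 snRNP.

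RNA of a pair of cell states was hybridised to each of 9 spotted cDNA arrays, with Cy3 on one state and Cy5 on the other. Growing myoblasts (MB) were C2C12 cells, a mouse myoblast line, kept in medium with serum, and the paper names a subclone of that line. G0 MB were C2C12 cells held for 48 h in suspension in semi-solid medium with serum, and MT were C2C12 myotubes formed in low-serum differentiation medium. G0 FB were fibroblasts arrested in suspension in the same way, named in the labels as NIH 3T3 cells and in the paper as C3H10T1/2 cells. The labels name no transgene, deletion or drug in any group, and myotube cultures of this line are known to keep some unfused cells. G0 MB over MB had 3 arrays, while the comparisons of MT with MB, of G0 MB with MT and of G0 MB with G0 FB had 2 each. The methods of the paper describe, for every pair of states, an array with the dyes reversed and one of a further biological sample, but neither they nor the labels say which arrays came from separate cultures. Each p-value therefore measures the spread between arrays, pooled for a clone over all 9 arrays, part of which may be technical. In the labels of all 9 arrays a treatment field tells of replating after arrest, and on 1 fibroblast array the source field of G0 MB begins with NIH 3T3 although its cell line field names C2C12. Each sample was used under the state in its title.

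The promoters of Hbp1, Jun and Rbpj are shown because Hbp1 had the highest mean ratio of G0 MB over MB among the members, while Jun and Rbpj are themselves members that bind DNA and have motifs in these windows that such proteins recognise. Each run holds the 250 bases before an annotated start, from RefSeq on GRCm38.p6, read 5′ to 3′ on the strand of the gene. That start need not be the outermost of the gene. The Rbpj gene begins upstream of its window, at 53555779, so its first start here is only the first of those used. The Hbp1 window also lies inside its gene, which ends at 31950530. So does that of Luc7l2, and that of Stat3 does in part. Capitals mark a match on either strand to 1 of 5 motifs, which were AP-1 (TGANTCA), the CRE type bound by Jun dimers (TGACNTCA), STAT (TTCNNNGAA), RBPJ (TGGGAA) and TCF/LEF (CTTTGAT).
Hbp1, chr12:31950246-31950495, minus strand: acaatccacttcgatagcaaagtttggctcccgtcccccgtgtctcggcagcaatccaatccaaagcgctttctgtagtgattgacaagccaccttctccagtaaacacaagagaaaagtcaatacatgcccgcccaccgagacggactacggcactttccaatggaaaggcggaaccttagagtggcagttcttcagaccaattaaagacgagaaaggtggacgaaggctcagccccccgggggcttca
Jun, chr4:95052223-95052472, minus strand: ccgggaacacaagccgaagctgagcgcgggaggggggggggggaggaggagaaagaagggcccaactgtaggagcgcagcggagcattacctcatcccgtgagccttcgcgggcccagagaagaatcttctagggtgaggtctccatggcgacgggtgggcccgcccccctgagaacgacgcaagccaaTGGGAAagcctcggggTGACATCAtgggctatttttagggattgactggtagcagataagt
Rbpj, first of its annotated starts, chr5:53590096-53590345, plus strand: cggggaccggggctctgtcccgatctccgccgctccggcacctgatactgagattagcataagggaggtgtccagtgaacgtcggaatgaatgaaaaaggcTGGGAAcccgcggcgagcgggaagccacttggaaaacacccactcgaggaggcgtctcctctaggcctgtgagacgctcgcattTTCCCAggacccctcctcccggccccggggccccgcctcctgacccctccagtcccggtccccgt

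The Jun window held TGACATCA between 45 and 38 bases before the start, a CRE-type match found in 7.49% of 32851 RefSeq promoter windows of this length, and an RBPJ match between 61 and 56 bases before it. The Rbpj window held 2 RBPJ matches, between 149 and 144 and between 65 and 60 bases before the start, a motif present in 21.6% of the windows. None of the 5 motifs was found in the windows of Hbp1, Pias1, Stat3 or Luc7l2, and no AP-1, STAT or TCF/LEF match was found in the window of any member, where 6.75%, 7.02% and 3.21% of all windows held one. These matches describe letters only, and the CRE-type and AP-1 motifs did not overlap in any of these windows. The members also differed in base composition, with 68.8% G and C in the Pias1 window, 61.2% in that of Jun, 52.4% in that of Hbp1 and 37.2% in that of Luc7l2, beside a median of 52.4% over all windows.

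Depending on the array, 36.4% to 61.1% of spots with a clone exceeded the detection limit of 1 channel or both, and duplicate spots of a clone had correlations of log2 ratio between 0.85 and 0.935. The limit, in arbitrary units of intensity, was read from the spots that the files mark as undetected. Replicates of G0 MB over MB correlated at r = 0.68 between replicates 1 and 2, which share an array layout, and at 0.202 and 0.204 with replicate 3, which has the other layout; these are correlations across clones, which are not independent replicates. The arrays of G0 MB over MT correlated at 0.0204 while for G0 MB over G0 FB the value was 0.214, in both readings explained below, although each of these pairs shares a layout. Growing-cell genes served as a check of the arrest: 7 of the 8 tested were past 1.6-fold lower in G0 MB, with a median log2 ratio of -2.66 beside -0.15 for all genes. Ccna2, cyclin A, had a mean log2 ratio of -3.24 (SE 0.67) and Ccnb1, cyclin B1, of -2.06 (SE 0.39). Dcn, which encodes the matrix protein decorin of fibroblasts, had 2.72 (SE 0.47). None of these 3 was called by the labelled dyes, while all 3 were called with the ratios in title order (limma adjusted p = 0.0341, 0.0352 and 0.0306), a reading explained next.

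The direction of a ratio rests on which dye each state carried, and this was not settled outside G0 MB over MB. The labels name MT as Cy5 on both arrays of MT over MB, yet these arrays correlated at r = -0.486 over 5502 clones. By these labels this is the one pair of states without the dye reversal that the methods describe for each. A second reading, called title order, takes the sign of the authors' deposited log2 table as the test state of the title over its reference; it leaves G0 MB over MB as the labels have it, turns replicate 1 of MT over MB, which brings that correlation to 0.486, and turns every array that sets G0 MB against MT or G0 FB. Tpm2, a tropomyosin of the contractile apparatus, had log2 ratios of MT over MB of -3.42 and 2.00 by the labelled dyes and of 3.42 and 2.00 in title order. For Mylpf, a fast muscle myosin light chain, the ratios of G0 MB over MT were 4.20 and 3.02 by the labelled dyes and -4.20 and -3.02 in title order. The labelled dyes therefore place Tpm2 and Mylpf lower in MT than in the other state on 3 of the 4 arrays that hold MT, and title order places both higher in MT on each of the 4. Tpm1, another tropomyosin and the remaining tested gene of the muscle list, did not follow them on every array. The labels put it lower in MT on all 4, with -0.83 and -0.69 in MT over MB and 0.92 and 0.74 in G0 MB over MT, while the titles put it higher in MT on 3 of 4, with 0.83 and -0.69, and -0.92 and -0.74. By the labels 1 of 5 growing-cell genes tested in MT over MB was past 1.6-fold lower and 2 higher. In title order 3 were lower and 1 higher. Ccna2 had -2.32 on replicate 1 by the labels and 2.32 in title order, and 0.05 on replicate 2. In G0 MB over G0 FB the labels gave Tpm2 -2.60 and -2.68, Tpm1 -1.23 and -1.28 and Dcn -2.39 and -0.59. They gave Mylpf -8.52 on replicate 2 alone, so it was not tested there. Title order reverses each. Of 3 fibroblast genes tested there, 1 was past 1.6-fold higher and 1 lower in either reading. Every value of these 3 comparisons is given by the labelled dyes and then in title order, and a size without a direction is the same in both.

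In G0 MB over MB, where both readings give the same direction, Hbp1 and Pias1 had the highest mean ratios of the members, followed by Jun and Stat3, while those of Luc7l2 and Rbpj lay near 0. None of the 6 genes passed the test, which asked for an adjusted p under 0.04 with a mean past 1.6-fold, in limma over all 9 arrays, where 0.391% of 6903 clones were called by the labelled dyes and 2.96% in title order. Single arrays moved that background widely: by the labelled dyes limma called 0 clones without replicate 1 or without replicate 2 (444 and 542 had an unadjusted p under 0.05) and 567 of 5755 without replicate 3. Hbp1 and Pias1, 2 of the 6 genes, had an unadjusted p under 0.05 by the labelled dyes, beside 22.5% of all clones. The means of 4 of the 6 genes were past 1.6-fold higher in G0 MB, beside 17.4% of 3780 genes by their brightest clones (20.8% of all clones). None was past 1.6-fold lower, beside 26.6% of those genes (25.8% of all clones). Since the study had picked these genes as higher in this comparison, nothing is read from that count.

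Hbp1 was given by its brightest clone, H3054E10. Its G0 MB channel read 11973, 11735 and 6994 on replicates 1, 2 and 3, where its MB channel read 2777, 2944 and 2491. In such whole-culture RNA, fewer cells with the transcript and less of it per cell cannot be told apart. The log2 ratios were 2.11, 1.99 and 1.49, above 0 on all 3 arrays. Of the 5200 clones with a value on all 3, 18.4% were above 0 on each. The MB channel lay under its detection limit on replicates 1 and 3 and just above it on replicate 2, so the size of the ratio depends on readings near that limit. The fitted mean was 1.86 (SE 0.59, 95% interval 0.50 to 3.23, n = 3 arrays), or 3.64-fold, with a limma adjusted p of 0.142. In title order the mean was the same, with an SE of 0.47 and a limma adjusted p of 0.0679. With the 3 arrays fitted on their own, the same mean passed the test (SE 0.47, adjusted p = 0.0227), in a fit that called 5.4% of clones. In title order it also passed without either array of G0 MB over MT (adjusted p = 0.0283), where 3.26% of clones were called.

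The plot of channel intensities shows where the weaker signal fell below the limit.

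**Figure D1:**
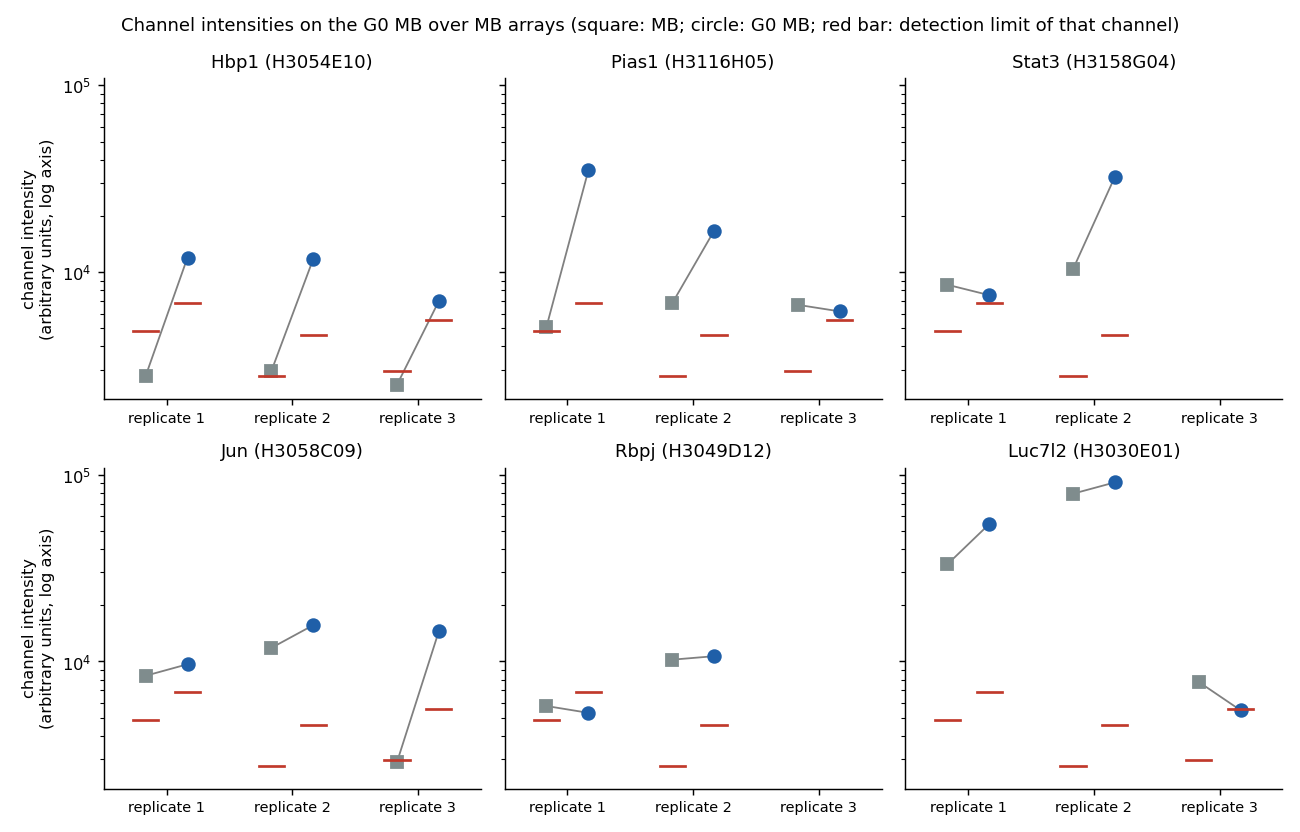
Channel intensities in arbitrary units on a log axis for the brightest clone of each of the 6 regulators, with MB as squares, G0 MB as circles, a grey line joining the states of 1 array, and a red bar for the detection limit of each channel. Hbp1 MB intensities of 2777, 2944 and 2491 lie under their limits on replicates 1 and 3 and just above on replicate 2, while Luc7l2 lies far above its limits on replicates 1 and 2 and Stat3 and Rbpj have no value on replicate 3.

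Pias1, in clone H3116H05, was above the limit in both channels of all 3 arrays. The G0 MB channel read 35056, 16632 and 6163 and the MB channel 5096, 6800 and 6683, which gave log2 ratios of 2.78, 1.29 and -0.12. The MB reading of replicate 1 was just above its limit of 4868, so the size of that ratio depends on it. On replicate 3 the G0 MB limit was 5554, also close to the reading. Replicates 1 and 2 were high and replicate 3 was not, and the mean of 1.32 (SE 0.57, 95% interval 0.01 to 2.63) had an adjusted p of 0.220 in limma. Without replicate 1 the mean was 0.59, within 1.6-fold of no difference, with an adjusted p of 0.734 in limma. Without replicate 3 it was 2.04, with an adjusted p of 0.0603 by the labelled dyes and of 0.0384 in title order, a setting that called 19.1% of all clones. In a fit with a term for the array layout, which replicates 1 and 2 share, it was -0.12, which is replicate 3 alone by construction. Layout cannot be told apart from replicate here, since replicate 3 is the only array of its layout in this comparison.

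Stat3, in clone H3158G04, had values on replicates 1 and 2 alone, with G0 MB intensities of 7530 and 32442 and MB intensities of 8562 and 10367. The log2 ratios were -0.19 and 1.65, so the arrays did not share a direction, and the mean of 0.73 (SE 0.69, adjusted p = 0.537 in limma) was no larger than the gap between them. Jun showed the opposite arrangement of arrays. Its G0 MB channel read 9665, 15644 and 14523 and its MB channel 8387, 11819 and 2886, for log2 ratios of 0.20, 0.40 and 2.33. All 3 were above 0, with replicate 3 far above the others and its MB reading under the limit. The mean was 0.98 (SE 0.49, adjusted p = 0.272 in limma), and without replicate 3 it was 0.30.

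Rbpj was measured on replicates 1 and 2, with G0 MB intensities of 5310 and 10674 beside MB intensities of 5775 and 10225, and its G0 MB channel was under the limit on replicate 1. Its log2 ratios of -0.12 and 0.06 differed by less than the SE of 0.41 of their mean of -0.03 (95% interval -1.05 to 0.99). Luc7l2 read 54418, 91013 and 5480 in G0 MB and 33127, 79154 and 7776 in MB, with its G0 MB channel under the limit on replicate 3. Its log2 ratios of 0.72, 0.20 and -0.50 fell on both sides of 0, with a mean of 0.14 (SE 0.39, 95% interval -0.76 to 1.03). For neither gene does the interval leave out a 1.6-fold difference in either direction.

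Where a gene had further clones, these gave lower mean ratios of G0 MB over MB for Hbp1 and Stat3 and a higher one for Luc7l2. Hbp1 clone H3122C01 had log2 ratios of 1.00, 0.76 and -0.08 and a mean of 0.56 (SE 0.38), and H3054G12 was not above the limit on any of the 9 arrays. Stat3 clone H3100B06 had 1.28, 0.59 and -0.31, so its replicate 1 was high where that of H3158G04 was not. Pias1 clone H3031G10 had a value on replicate 2 alone, of 0.42, with its G0 MB channel under the limit. Of the remaining Luc7l2 clones, H3149D08 had 0.17 and 0.65 on replicates 2 and 3, H3092E02 had -0.79 on replicate 3, and H3036C11 had none. Of the 13 clones 9 were tested in this comparison, and no clone was called. The median log2 ratio of those 9 was 0.56, beside -0.08 over all clones tested. Since the study had picked these genes as higher on the same arrays, nothing is read from that median.

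**Figure D2:**
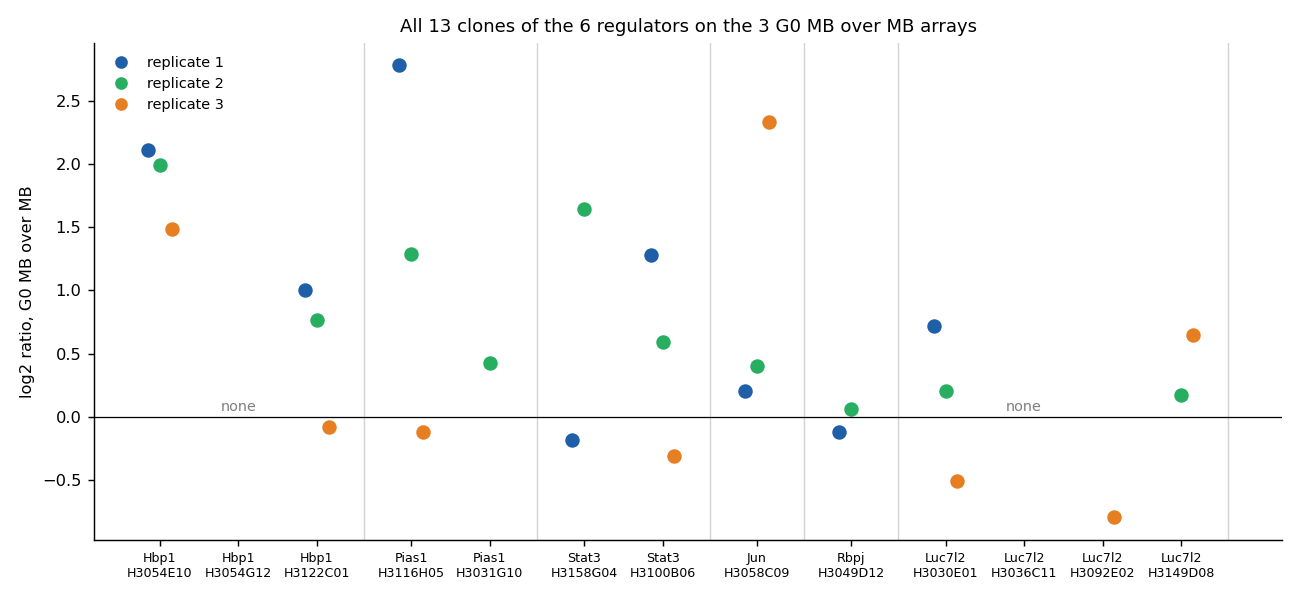
Log2 ratio of G0 MB over MB on each array for all 13 clones of the 6 regulators, coloured by replicate, with the brightest clone of each gene first and "none" where a clone has no value. Replicate 3 lies below the other replicates in both measured Hbp1 clones, in Pias1 H3116H05, in Stat3 H3100B06 and in Luc7l2 H3030E01, and above them in Jun and in Luc7l2 H3149D08.

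In MT over MB, the second route out of the cycle, 3 of the 6 genes had values on both arrays and none was called, where by the labelled dyes 0 of 5373 clones were called (0%; 70 had an unadjusted p under 0.05) and 0.614% in title order. Hbp1 had MT intensities of 6075 and 4838 beside MB intensities of 10769 and 1726 by the labelled dyes, for log2 ratios of -0.83 and 1.49, with the MB channel under its limit on replicate 2. Those 2 arrays disagreed by the labelled dyes, with a mean of 0.33 (SE 0.72), while in title order both were above 0, at 0.83 and 1.49, with a mean of 1.16 (SE 0.58, 95% interval -0.18 to 2.49, limma adjusted p = 0.516). Pias1 had ratios of 0.39 and -0.16 by the labelled dyes and -0.39 and -0.16 in title order. Luc7l2 had 0.65 and -0.09, and -0.65 and -0.09 in title order. For both genes each array lay within 1.6-fold of no difference. Pias1 clone H3031G10 had 0.31 and Luc7l2 clone H3149D08 had -0.29, each on replicate 2 alone. On replicate 2 alone, which both readings take the same way, Stat3 had 1.14 with its MB channel under the limit, Jun had -1.34 with its MT channel under the limit, and Rbpj had 0.47 with both channels above it. These 3 single values have no replicate and were not tested.

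The difference between the arrests, taken as the ratio of G0 MB over MB less that of MT over MB, could be fitted for the same 3 genes and was called for none, as for 0 of 5056 clones (0% in either reading; 390 and 647 had an unadjusted p under 0.05). For Hbp1 it was 1.53 (SE 0.93) by the labelled dyes and 0.71 (SE 0.74) in title order, and for Pias1 1.21 (SE 0.91) and 1.59 (SE 0.88). For Luc7l2 it was -0.15 (SE 0.62) and 0.51 (SE 0.60), on either side of 0. The lowest adjusted p among these 6 values was 0.450 (limma), for Pias1 in title order.

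In G0 MB over MT, 5 of the 6 genes were tested and none was called, beside 0.039% of 5134 clones by the labelled dyes and 0.37% in title order. Jun had the largest difference of the members. The channel labelled MT read 6890 and 1803 and the channel labelled G0 MB 1955 and 216, and the log2 ratios were -1.82 and -3.06 by the labelled dyes, or 1.82 and 3.06 in title order. The value of replicate 2 came from 1 spot. The state that the labels call MT was the brighter on both arrays, although its dye was reversed between them, and the dimmer channel lay under its limit on both. The fitted size was a log2 ratio of 2.44 in title order (SE 0.58, 95% interval 1.09 to 3.79, limma adjusted p = 0.159) and -2.44 by the labelled dyes (SE 0.60, adjusted p = 0.302). Computed with the limit in place of the dim channel, the brighter state was at least 1.58-fold higher.

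The other genes of G0 MB over MT did not share a direction between arrays, or came near to 0 on one. Hbp1 had 0.58 and -1.88 by the labelled dyes, each from 1 spot, and -0.58 and 1.88 in title order. On neither array were both of its channels above the limit, since the channel labelled MT was under it on replicate 1 and that labelled G0 MB on replicate 2. Pias1 had 1.58 and -0.55, and -1.58 and 0.55 in title order, so that replicate 1, where the channel labelled MT was under its limit, was the higher by the labels and the lower by the titles. Stat3 had -0.06 and -1.29 by the labels, and 0.06 and 1.29 in title order, with the channel labelled G0 MB under its limit on both arrays, and no bound above 1-fold could be given. Luc7l2 had 0.97 and -0.42, and -0.97 and 0.42 in title order, both well above the limits. On replicate 2 the second Stat3 clone, H3100B06, had 0.83 by the labels and -0.83 in title order, against the first clone. Pias1 H3031G10 and Luc7l2 H3149D08 had -0.46 and -0.54 there, or 0.46 and 0.54. Luc7l2 H3092E02 had -6.44 on replicate 1, or 6.44, from 1 spot. The channel labelled G0 MB was under its limit for each of these further clones. The adjusted p of these 4 genes ranged from 0.988 to 0.998 by the labelled dyes and from 0.867 to 0.973 in title order (limma). Rbpj had no value in this comparison.

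In G0 MB over G0 FB, which sets the same suspension arrest in muscle cells against that in fibroblasts, 5 genes were tested and none was called, beside 0.0805% of 6211 clones in either reading. Stat3 had the largest difference. By the labelled dyes its clone H3158G04 read 17134 and 9341 in G0 MB and 5830 and 785 in G0 FB, with log2 ratios of 1.56 and 3.57, and in title order these are -1.56 and -3.57. The labelled direction, higher in G0 MB, is the opposite of the one in which the study lists Stat3 and Pias1 between these cells. The mean was 2.56 by the labels (SE 0.69, limma adjusted p = 0.993) and -2.56 in title order (SE 0.67, adjusted p = 0.539). On replicate 2 the duplicate spots gave 5.09 and 2.06 by the labelled dyes, the widest gap of any member, and the channel labelled G0 FB was under its limit there. The second Stat3 clone, H3100B06, had -0.76 on replicate 1 by the labels and 0.76 in title order, against the direction of the first clone on that array.

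In Pias1 clone H3116H05 and in Rbpj the fibroblast arrays gave similar ratios, although on replicate 2 the channel labelled G0 FB was under its limit of 5422 for both, at 4313 and 3833. Pias1 had 0.68 and 0.75 by the labelled dyes, and -0.68 and -0.75 in title order, with a mean of 0.71 or -0.71 (SE 0.70 and 0.68). Its clone H3031G10 differed between the arrays, with -0.22 and 1.48, or 0.22 and -1.48, and was under the same limit on replicate 2. Rbpj, the partner of Notch, had 0.71 and 0.82, or -0.71 and -0.82 in title order, with a mean of 0.77 (SE 0.41, 95% interval -0.25 to 1.79, limma adjusted p = 1.00) by the labels. These genes thus lay on the same side as Stat3 in either reading. Jun had -0.52 and -0.18 by the labels and 0.52 and 0.18 in title order, the other side from Stat3. Luc7l2 had -0.42 and 0.15, or 0.42 and -0.15, and its clone H3149D08 had 0.02 and 0.34, or -0.02 and -0.34. Luc7l2 clone H3036C11 had 0.06 on replicate 1 alone, or -0.06. Hbp1 had single values, 0.29 on replicate 1 in H3054E10 and 1.20 on replicate 2 in H3122C01 by the labels, or -0.29 and -1.20, and was not tested.

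**Figure D3:**
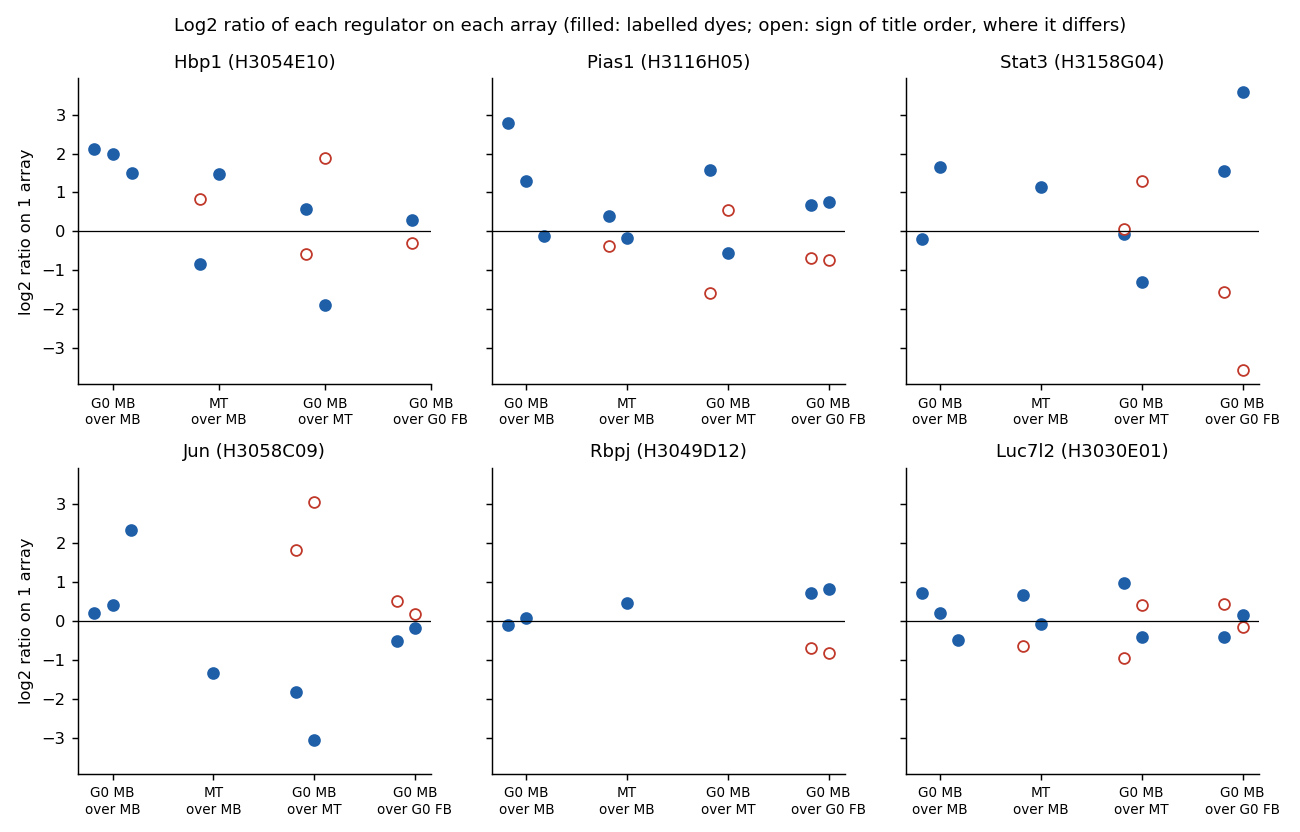
Log2 ratio of the brightest clone of each regulator on every array, in the 4 comparisons, with filled points by the labelled dyes and open points in title order where it differs. Hbp1 lies above 0 on all 3 arrays of G0 MB over MB, Jun is at -1.82 and -3.06 (or 1.82 and 3.06) in G0 MB over MT, and Stat3 is at 1.56 and 3.57 (or -1.56 and -3.57) in G0 MB over G0 FB.

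**Figure D4:**
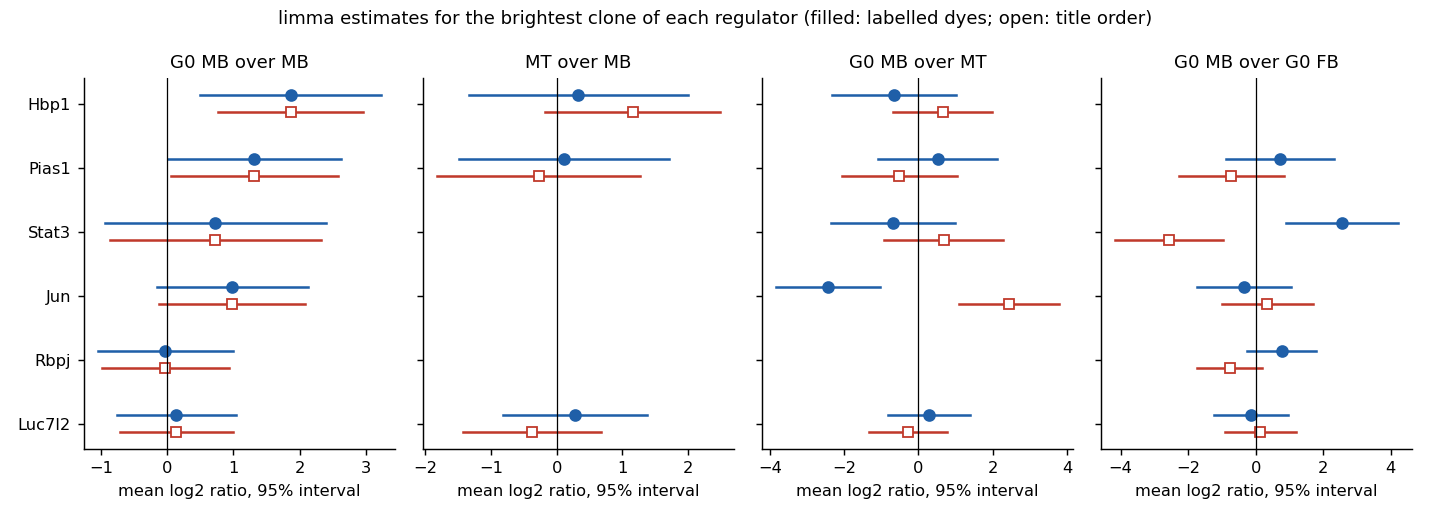
Mean log2 ratio with its 95% interval from limma for the brightest clone of each regulator in the 4 comparisons, filled by the labelled dyes and open in title order, with no mark where a gene was not tested. The intervals, which are not adjusted for the number of clones, leave out 0 in both readings for Hbp1 and Pias1 in G0 MB over MB, Jun in G0 MB over MT and Stat3 in G0 MB over G0 FB. None of these was called, and for Jun and Stat3 the readings give opposite directions. By the labelled dyes 1553 of 6903, 408 of 5134 and 225 of 6211 clones had an unadjusted limma p under 0.05 in these comparisons.

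Each clone was also followed across states by its channel intensity, as log2 of the intensity over the median of that channel, within 1 clone at a time. For Hbp1 H3054E10 the median level in title order was highest in G0 MB, at -0.07 over 6 arrays (range -2.01 to 0.33), followed by MT at -1.03 over 4 arrays (-3.36 to -0.50) and MB at -1.72 over 5 arrays (-2.04 to -1.14), with a single G0 FB value of -0.07. By the labelled dyes the medians were 0.06, -1.44 and -1.72 in the same order. The ranges of neighbouring states overlapped in both readings, so the order did not exceed the spread between arrays. For Jun the median was 0.19 in G0 MB over 7 arrays (-1.28 to 1.39) and -2.39 in MT over 3 arrays (-4.37 to -1.57) in title order. Those ranges did not overlap, but all 3 of the MT readings came from channels under their limits, so nothing is read from the gap. By the labelled dyes the medians were 0.07 (-4.37 to 1.39) and -1.28 (-1.57 to -0.57), with ranges that overlapped. For Stat3 the level of G0 FB was 0.49 in title order over 2 arrays and -2.09 by the labels, above or below a G0 MB median of -1.11 or -0.30. The ranges of G0 FB and G0 MB overlapped in both readings. They were -0.12 to 1.1 and -3.76 to 1.76 in title order, and -3.76 to -0.42 and -3.06 to 1.76 by the labels. Luc7l2 had median levels between 1.47 and 2.38 in the 4 states in both readings, with overlapping ranges in all neighbouring states.

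The genes most alike to each member were found by the cosine of their log2 ratios over shared arrays, a measure that is the same in both readings because each array is turned whole. For Hbp1 these were Vmp1 (0.932), Ctr9 (0.909) and Cbr2 (0.905) among 1903 genes with at least 8 shared arrays. For Pias1 they were Gabrb1 (0.971), Cdk14 (0.967) and BC057627 (0.966) among 2607 genes, and for Luc7l2 Setd2 (0.962), Gtpbp4 (0.942) and Tulp3 (0.932). Those for Stat3 were B4galt1 (0.954), Xdh (0.948) and Ier3 (0.931) over 7 arrays, and those for Jun were Prdx4 (0.936), Pcdhga12 (0.929) and Rbms1 (0.852). Rbpj had 5 arrays, too few for this. Among the members themselves, the closest pair with at least 7 shared arrays was Pias1 and Luc7l2, with a cosine of 0.712 over 9 arrays and the same side of 0 on 8, followed by Hbp1 and Pias1 at 0.657 over 8 arrays. Jun had cosines of -0.04 with Pias1 and -0.17 with Luc7l2 over 8 arrays. The points share arrays, RNA and a wide range of intensities, and likeness is given as a description.

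The pathways around the members were read from lists of related genes in G0 MB over MB, where 16 of 3780 genes were called higher and 2 lower, with a median of -0.15. Around Stat3, 4 of 26 listed genes of the JAK-STAT and gp130 pathway were tested and none was called, with a median of 0.81. Jak2, a receptor-bound kinase, had a mean log2 ratio of 1.23 (SE 0.68) and Jak1, another such kinase, 1.06 (SE 0.39), while Ptpn2, a phosphatase that acts on them, had -1.72 (SE 0.66). Around Pias1, 10 of 17 SUMO pathway genes were tested with none called and a median of -0.26. The modifier Sumo3 had a mean log2 ratio of -1.96 (SE 0.50) and Rangap1, a classic SUMO substrate, -1.27 (SE 0.55). Of the 10 genes, 3 had means past 1.6-fold higher and 4 past 1.6-fold lower, beside 17.4% and 26.6% of all 3780 genes, and nothing particular to the pathway is read from these counts.

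Around Jun, 5 of 21 AP-1 genes were tested, with none called and a median of 0.42. Map2k7, a kinase of the JNK cascade that leads to Jun, had 1.18 (SE 0.45), and Fosl1 and Atf4, which can dimerise with Jun, had -0.85 (SE 0.36) and -0.60 (SE 0.45). Around Rbpj, 10 of 40 Notch pathway genes were tested, with none called and a median of 0.31. Itch, a ubiquitin ligase that acts on Notch, had 3.02 (SE 1.01, 2 arrays). Its arrays differed widely, with 5.62 on replicate 1 and 0.41 on replicate 3, so that mean rests on replicate 1. Ncstn, a subunit of gamma-secretase, had -0.80 (SE 0.47), and Dtx1, a Notch-binding ligase, -0.44 (SE 1.02). Apart from Itch and Ncstn, the tested Notch genes lay within 1.6-fold of no difference. Around Hbp1, 8 of 23 genes of its Wnt and Rb partners were tested, with none called and a median of 0.39. Lef1 and Tle1, a Wnt transcription factor and a co-repressor, had 0.96 (SE 0.40) and 0.88 (SE 0.36), and the deacetylase Hdac1 had -0.90 (SE 0.34).

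Around Luc7l2, 7 of 18 genes of the U1 snRNP and the LUC7 family were tested, with none called and a median of 0.28. Luc7l, the paralog of Luc7l2, had 1.47 (SE 0.55), and the core snRNP proteins Snrpb and Snrpd2 had -1.89 (SE 0.53) and -1.55 (SE 0.44). cDNA spots of paralogs can share labelled RNA, so Luc7l and Luc7l2 were not strictly separate measurements. Among other nuclear inhibitors of myogenesis, 11 of 34 were tested with none called and a median of -0.15, the same as for all genes to 2 decimals. Nfe2l2, a stress-response factor, had 1.61 (SE 0.49), Ezh2, the methyltransferase of Polycomb, -1.36 (SE 0.57), and Id1, which sequesters the partners of MyoD, -1.21 (SE 1.39). Of the myogenic activators 4 of 20 were tested with none called, with Smarca4, a chromatin remodeller, at -1.39 (SE 0.55), Mef2a at 0.82 (SE 0.73) and Tcf3 at -0.57 (SE 0.45). Of the muscle structural genes 3 of 16 were tested here and of the fibroblast genes 4 of 10, with medians of -0.24 and 0.51. Their part in the members' values was not tested.

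In the other comparisons no gene of the pathway lists around the members was called in either reading. In MT over MB, Tpm2 was called in title order (2.71, SE 0.41, limma adjusted p = 0.0279) and not by the labelled dyes (-0.71, SE 0.99), and it was the one gene called from all the lists outside G0 MB over MB.

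**Figure D5:**
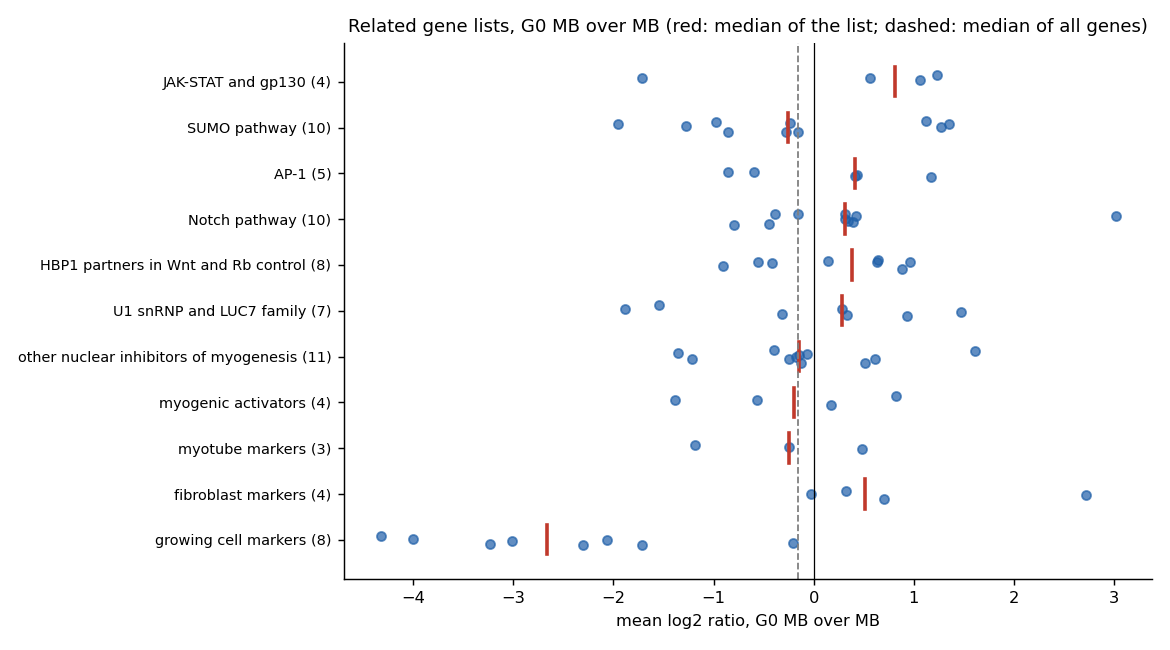
Mean log2 ratio of G0 MB over MB for each tested gene of the related lists, with the number tested in brackets, the median of a list in red, the median of all genes dashed and 0 as a solid line. Growing-cell genes lie lowest, with a median of -2.66, and the medians of the other lists lie between -0.26 and 0.81.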

How the data were processed

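Per the paper's methods and the file headers, spot signals were read by the authors in ArrayVision, freed of background and normalized by LOWESS within each array, so the deposited Cy3 and Cy5 intensities already hold these steps. Spots that were filtered are 0 in both channels. The log2 values deposited by the authors are ratios of these intensities, as Cy5 over Cy3 or the inverse, and their table of the series holds the same log2 ratios, with the columns of the replicates of MT over MB exchanged. Tool versions are not given in the sources used here.

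Duplicate spots were averaged where at least 1 channel was above the limit of the array, and control spots (52 identifiers) were left out. Limma 3.58.1 in R 4.3.3 (lmFit, eBayes) fitted 1 coefficient per comparison to all 9 arrays. A clone was tested with at least 2 arrays and 2 residual degrees of freedom, and called at a Benjamini-Hochberg adjusted p under 0.04 and a mean past 1.6-fold (log2 0.67). The design had foreseen raw intensities; since these were already normalized, loess was repeated (span 0.3) as an alternative only. A bound uses the limit in place of a channel under it. Of several clones for 1 gene, that of highest mean log intensity stands for it. Named genes are all members and clones, for each list the genes called in either reading and otherwise at most 3 with the largest difference in G0 MB over MB, and for each member its 3 most alike genes. A gene that this rule names is not reported here. Mylpf was named after its values were seen. Members and lists were chosen with earlier results of these data known. The fit was tested on simulated data. Alternatives were the sign, the authors' table, centring, loess, the limit, separate, dye, loop, replicate and layout fits, each array left out, and the mean of clones. Python 3.11.15, pandas 2.3.3 and numpy 2.4.6 made the tables. The number of arrays limits the precision.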

Additional observations from a re-analysis of the deposited data

How the results depend on the processing

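No member was called in any of the 4 comparisons by the labelled dyes, and this held under the alternatives run except the fit of the arrays of G0 MB over MB on their own, where 1 member, Hbp1, was called (1.86, adjusted p = 0.0227, beside a range of 0.0227 to 0.860 over its alternatives). In title order, with an array left out, which was chosen after seeing the data, between 0 and 1 members were called in G0 MB over MB: Hbp1 without either array of G0 MB over MT (adjusted p = 0.0283), where 3.26% of 6869 clones were called, and Pias1 without replicate 3 (2.04, adjusted p = 0.0384), where 19.1% of 5755 clones were called. The mean of Hbp1 in G0 MB over MB ranged from 1.21 to 2.10 over all settings. Groups of 2 or 3 arrays are too few for a test of outlying arrays, and depth here is the detection limit, which the weaker channel often missed.

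Title order and the authors' table reversed each mean of the comparisons of G0 MB with MT and with G0 FB. In title order, Hbp1, Pias1, Stat3, Jun and Luc7l2 became 0.65, -0.51, 0.68, 2.44 and -0.28 in G0 MB over MT, and by the authors' values 0.61, -0.51, 0.71, 2.44 and -0.28. In both, Pias1, Stat3, Jun, Rbpj and Luc7l2 became -0.71, -2.56, 0.35, -0.77 and 0.13 in G0 MB over G0 FB. In MT over MB both gave -0.27 for Pias1 and -0.37 for Luc7l2, and in the difference of the arrests both gave 0.51 for Luc7l2. These reversals follow from the sign that each array was given.

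In G0 MB over MB a fit with the layout term gives replicate 3 alone, by construction. It returned -0.12 for Pias1 and -0.50 for Luc7l2, and -0.23 for Pias1 in the difference. For the rest the cause was not tested. Rbpj in G0 MB over MB became 0.14 after median centring, 0.11 after repeated loess, and 0.36 with no limit and by the authors' table. A dye term gave -0.14 for Hbp1 and -0.23 for Pias1 in MT over MB, and 0.036 for Luc7l2 in the difference, where centring gave 0.045. The loop fit gave 0.17 for Hbp1 in G0 MB over MT. The mean of clones gave -1.61 for Luc7l2 there, with a value of -6.44 from 1 spot of H3092E02 on replicate 1, and 0.066 in G0 MB over G0 FB. In title order it gave 1.61 and -0.066.

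With 1 array left out at a time, several means crossed 0. Luc7l2 ran from -0.15 to 0.46 in G0 MB over MB, from -0.086 to 0.65 in MT over MB, from -0.42 to 0.97 in G0 MB over MT, from -0.42 to 0.15 in G0 MB over G0 FB and from -0.52 to 0.22 in the difference. Hbp1 ran from -0.83 to 1.49 in MT over MB and from -1.88 to 0.58 in G0 MB over MT, and Pias1 from -0.16 to 0.39 and from -0.55 to 1.58. In title order the ranges of G0 MB over MT were -0.58 to 1.88, -1.58 to 0.55 and -0.97 to 0.42 for Hbp1, Pias1 and Luc7l2, and that of Luc7l2 was -0.15 to 0.42 in G0 MB over G0 FB. Where 1 array was left in a comparison, it was assumed to vary like the others. Pias1 in G0 MB over MB had a mean of 1.32, which became 0.59 without replicate 1 and 2.04 without replicate 3, and that of Jun went from 0.98 to 0.30 without replicate 3.

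As a check of whether replicate numbers pair the arrays, the deviations of same-numbered arrays from their means correlated between -0.389 and 0.0374, none over 0.1. This cannot exclude pairing. In a comparison of 2 arrays the deviations mirror each other, and some same-numbered arrays carry G0 MB in opposite dyes. With a replicate block the calls over all clones in G0 MB over MB moved from 27 to 73, no member was called, Hbp1 was 2.10 and Pias1 2.55 (adjusted p = 0.0489), and Luc7l2 turned to 0.12 in G0 MB over G0 FB and to 0.17 in the difference. Calls in G0 MB over MB also moved to 204 in title order, 281 in the separate fit, 102 without either array of MT over MB, 2 without either array of G0 MB over G0 FB, 0 without its own replicate 1 or 2 and 567 without replicate 3. In title order they ranged from 22 to 1097 with 1 array left out, the extremes being without replicates 2 and 3.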
